A study of Mus musculus with 12 samples.

Results

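*Wt1* and 7 genes of the glomerular podocyte were followed in whole mouse kidneys at postnatal day 3. The 8 genes are *Wt1*, *Nphs1*, *Podxl*, *Synpo*, *Ptpro*, *Magi2*, *Cd2ap* and *Tcf21*. They were chosen by name for their place in the podocyte slit diaphragm or in podocyte identity, and all 8 were found among the 24062 genes counted in every kidney. RNA from 12 kidneys was sequenced, 3 in each of 4 groups, and in each group 2 kidneys came from litter 1 and 1 from litter 2. *LIN28B*Wt1 mice, on a C57BL/6 background, carry a doxycycline-inducible human *LIN28B* transgene that is switched on in cells whose *Wt1* promoter has driven Cre recombinase, and doxycycline was given as a brief pulse before birth. Their controls were littermates on C57BL/6, which the labels give as WT. *let-7* KO mice, on a mixed CD1 and C57BL/6 background, lack the cluster of 3 *let-7* genes *let-7a1*, *let-7d* and *let-7f1* constitutively, and their controls were *let-7* WT littermates on the same mixed background.

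Podocytes are the epithelial cells that wrap the glomerular capillaries. Their interlocking foot processes are joined by the slit diaphragm, a protein sheet that forms the last layer of the kidney filter, and an actin skeleton holds the foot processes in shape. *Wt1*, a zinc-finger transcription factor, is required for the kidney to form, is active in the nephron progenitors of the cap mesenchyme, and stays on in the podocyte of the finished nephron. Some of the other genes are also not exclusive to podocytes. *Tcf21* is expressed in the renal stroma, *Podxl* in endothelium, and *Cd2ap* and *Magi2* in several epithelia. In RNA from whole kidney, fewer cells of a type and less RNA per cell cannot be told apart.

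LIN28B protein blocks the maturation of *let-7* microRNAs, and *let-7* lowers the messages it pairs with through its seed, bases 2 to 8. The 3 microRNAs made from the 5′ arms of the deleted cluster are shown because the *let-7* KO removes exactly these genes. They lie close together on the minus strand of chromosome 13 (RefSeq, GRCm38.p6), with the *let-7d* sequence at 48536078 to 48536099, the *let-7f* sequence at 48537889 to 48537910 and the *let-7a* sequence at 48538239 to 48538260. The seed is in capitals and is identical in the 3 sequences.
let-7d-5p: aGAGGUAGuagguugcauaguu
let-7f-5p: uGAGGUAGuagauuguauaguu
let-7a-5p: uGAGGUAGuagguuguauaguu

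A message that pairs with this seed holds CTACCTC or the shifted TACCTCA, the latter with an A opposite the first base of the microRNA. The longest annotated 3′ UTR of each gene was searched on the message strand only, counting either sequence where they overlap. None of the 8 genes held either one, in 3′ UTRs of between 418 bases (*Nphs1*) and 3534 bases (*Podxl*). Of 21020 genes with an annotated 3′ UTR, 9.02% held CTACCTC and 14.9% held either sequence. The absence of these letters is a description of the annotated 3′ UTRs and says nothing of sites elsewhere in the messages.

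All 8 genes are protein-coding, and their positions are those of GENCODE M21 on GRCm38 (mm10), the build the submitters' notes name. *Wt1* (ENSMUSG00000016458.14) occupies chr2:105126529-105173616 on the plus strand, *Nphs1* (ENSMUSG00000006649.17) chr7:30458315-30487223 on the plus strand, *Podxl* (ENSMUSG00000025608.9) chr6:31519488-31563981 on the minus strand and *Ptpro* (ENSMUSG00000030223.14) chr6:137252319-137463233 on the plus strand. *Magi2* (ENSMUSG00000040003.18) occupies chr5:19227036-20704792 on the plus strand, *Cd2ap* (ENSMUSG00000061665.7) chr17:42792951-42876665 on the minus strand, *Tcf21* (ENSMUSG00000045680.8) chr10:22817281-22820174 on the minus strand and *Synpo* (ENSMUSG00000043079.17) chr18:60593973-60660142 on the minus strand. The counts are of reads over exons, and 2 of the 8 genes share exonic bases with a neighbour. *Nphs1* shares 597 exonic bases (9.02% of its own) with the antisense gene *Nphs1os* and 183 (2.76%) with the pseudogene *Rps12-ps4*, both on the opposite strand. *Magi2* shares 203 (1.79%) with *Gm29254* on its own strand. Whether the counting used strand is not given in the sources used here, so reads of these overlaps are uncertain.

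Each kidney gave between 39926235 and 61872736 counted reads, and expression is given below in CPM, the count scaled to the kidney's library total after TMM adjustment over the 12 kidneys. A gene with 3 counts would stand at 0.04896 to 0.08252 CPM depending on the kidney, and every one of the 8 genes was above it in every kidney, with between 137 counts (*Magi2*) and 26399 counts (*Tcf21*). Reads on mouse *Lin28b* numbered 0, 18 and 33 in the 3 controls and 232, 224 and 71 in the 3 *LIN28B*Wt1 kidneys, and reads from the human transgene and the mouse gene cannot be told apart in them. The hairpin genes *Mirlet7a-1*, *Mirlet7d* and *Mirlet7f-1* were at 0 counts in all 3 *let-7* KO kidneys, but also in 1 of the 3 *let-7* WT kidneys and at no more than 35 counts in the other two, so they check the labels only weakly. The *LIN28B*Wt1 kidney with 71 *Lin28b* counts, listed last, is the only litter 2 kidney of its group. Its chi-square per gene was 231 and 221 against the litter 1 kidneys of the group, and 59.2 between those. Gaps of this size were not particular to it. The chi-square per gene ran from 90.4 to 232 among *let-7* KO kidneys and from 93.8 to 201 among *let-7* WT kidneys. Among the controls of *LIN28B*Wt1 it ran from 30.8 to 73.6. Litter and single kidney cannot be told apart here. The podocyte marker *Lmx1b* never exceeded 1.282 CPM and was at 0 in 2 kidneys. Adrenal markers, which would mark adherent adrenal tissue, were low but not absent. *Star* was counted in all 12 kidneys, at 1.097 to 4.88 CPM. *Cyp11a1* was at 0 in 7 of 12 kidneys and reached 1.862 CPM. It was at 0 counts in all 3 controls of *LIN28B*Wt1 and at 1, 52 and 68 counts in the *LIN28B*Wt1 kidneys. The steroid enzyme genes *Cyp11b1* and *Cyp21a1* were at 0 in 11 and 9 of 12 kidneys. The globin genes *Hbb-bs* and *Hba-a1* are listed at 0 in all 12, while *Alas2*, another blood marker, was at 33.21 to 90.37 CPM. Whether the globin zeros reflect expression or the counting was not tested.

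None of the 8 genes was called in either model. In edgeR's quasi-likelihood test, with each model fitted alone, 0 of 8 had an adjusted p below 0.05 in *LIN28B*Wt1 kidneys, where 1.23% of the 15793 genes tested had one. The corresponding count for *let-7* KO was 0 of 8, where 0.0194% of 15500 genes passed. At the study's unadjusted p below 0.01 it was 0 of 8 in both models, against 7.33% of all genes in the first and 2.73% in the second. At an unadjusted p below 0.05, 0 of 8 passed in *LIN28B*Wt1 (18% of all genes) and 1 of 8, *Synpo*, in *let-7* KO (10.8% of all genes). DESeq2 called 0 of 8 in *LIN28B*Wt1 (8.17% of all genes). In *let-7* KO it gave an adjusted p to 4 of the 8 genes and called 0 of them (3.89% of all genes with an adjusted p). Log2 fold changes were below 0 for 6 of the 8 genes in each model. Their medians were -0.23 for the overexpressing kidneys and -0.21 for the knockouts, beside medians of -0.02 and -0.02 over all genes tested. Of all genes tested, 51.5% and 51.99% were below 0.

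**Figure D1:**
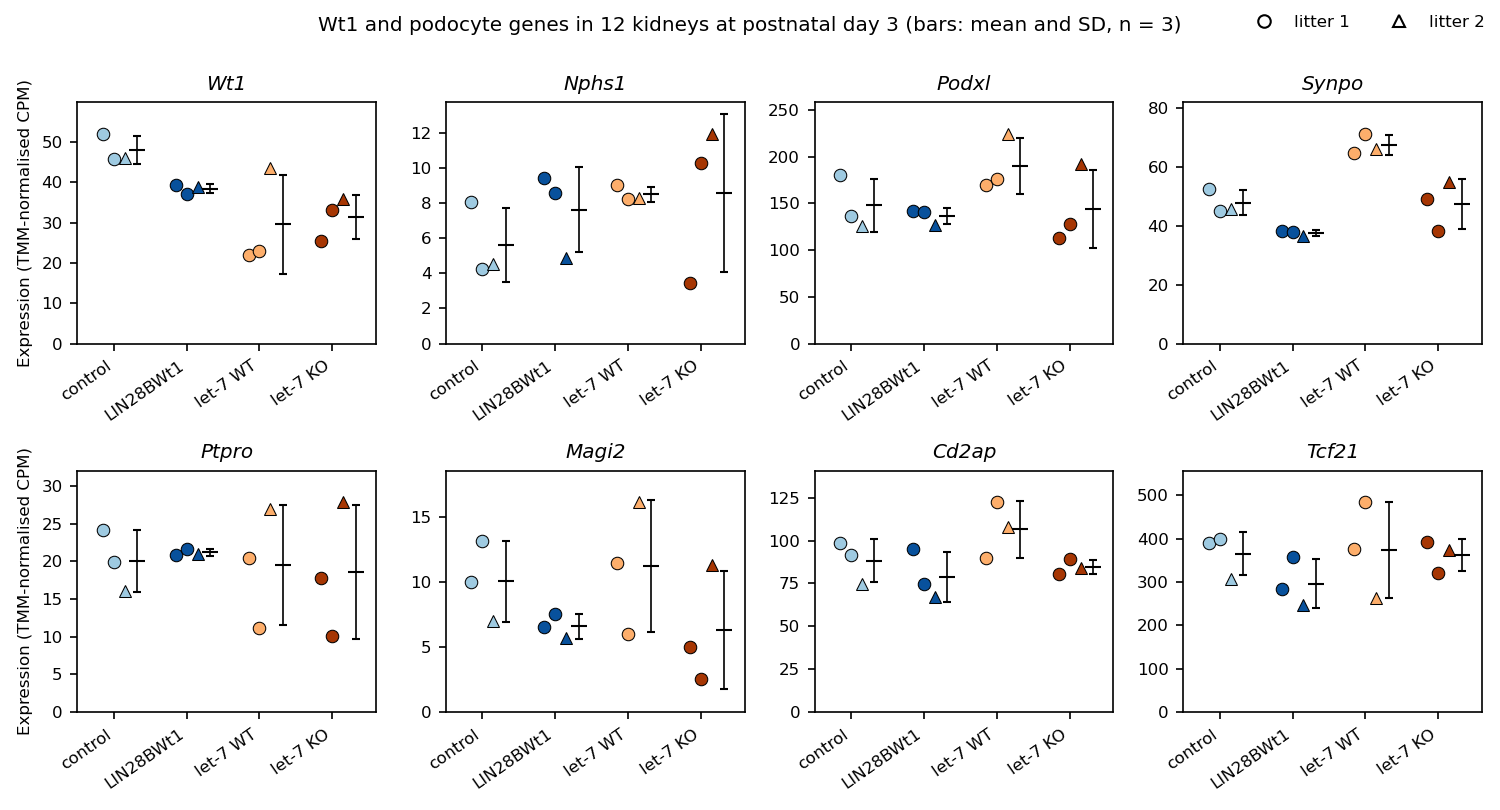
Expression of the 8 genes in each of the 12 kidneys, in TMM-normalised CPM on linear axes from 0, with 3 kidneys per group, circles for litter 1, triangles for litter 2, and a bar for the mean and SD. *Wt1* and *Synpo* are lower in all 3 *LIN28B*Wt1 kidneys than in all 3 controls, *Synpo* and *Cd2ap* are lower in all 3 *let-7* KO kidneys than in all 3 *let-7* WT kidneys, and the mutants and controls of each experiment overlap for the other genes.

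*Wt1* was lower in every *LIN28B*Wt1 kidney than in every control. Its level was 39.27, 37.1 and 38.93 CPM in the *LIN28B*Wt1 kidneys and 52.11, 45.82 and 46.18 CPM in the controls, or 38.44 ± 1.165 against 48.04 ± 3.535 (mean ± SD, n = 3 each). The log2 fold change was -0.32 (SE 0.15, edgeR adjusted p = 0.3212), and the 95% interval of the fold ran from 0.631 to 1.02. The difference did not pass the test, although the kidneys did not overlap. Such complete separation downwards was found for 2 of the 8 genes, *Wt1* and *Synpo*, and for 13.6% of all genes tested, and an exact permutation test of 3 against 3 kidneys gave 0.1, the smallest p it can give. No gene of the 8 was higher in all 3 *LIN28B*Wt1 kidneys, as 10.3% of all genes were. Within litters, *Wt1* was lower by a log2 difference of -0.36 in litter 1 and -0.25 in litter 2. Without the third *LIN28B*Wt1 kidney the log2 fold change was -0.33 (edgeR adjusted p = 0.2116). *Wt1* is also the gene whose promoter drives Cre in this model. The sources used here do not say whether the Cre allele leaves that copy of *Wt1* intact, nor, beyond the label WT, whether the controls carried it, and this was not tested.

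In the *let-7* experiment the *Wt1* value of 1 wild type, the only wild type of litter 2, lay well above the others. The 2 *let-7* WT kidneys of litter 1 had 22.09 and 22.99 CPM and the *let-7* WT kidney of litter 2 had 43.62 CPM, while the *let-7* KO kidneys had 25.42 and 33.11 CPM in litter 1 and 36.01 CPM in litter 2. The KO kidneys lay between the wild types of the 2 litters. The log2 fold change was 0.08 (SE 0.3, edgeR adjusted p = 0.9454), with a 95% interval of the fold from 0.666 to 1.69. Within litters the log2 difference was 0.36 in litter 1 and -0.28 in litter 2, so that its direction differed between them. Litter 2 has 1 kidney per group, so litter and single kidney cannot be told apart. Leaving out any 1 of the 2 litter 1 wild types, or the litter 2 knockout, also turned it, to between -0.09 and -0.02, and without the litter 2 wild type it was 0.47. The difference between the models, tested as an interaction in 1 fit of the 12 kidneys, was -0.42 on the log2 scale (SE 0.35, edgeR adjusted p = 0.9555).

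*Tcf21*, a basic helix-loop-helix transcription factor of podocytes and stroma, overlapped between mutants and controls in both models. Its level was 283.8, 357 and 246.7 CPM in *LIN28B*Wt1 kidneys and 390.6, 398.8 and 307.5 CPM in the controls. The litter 2 kidney was the lowest of its group in both. This gave a log2 fold change of -0.3 (SE 0.17, edgeR adjusted p = 0.3877), with log2 differences of -0.31 in litter 1 and -0.32 in litter 2, and -0.19 without the third *LIN28B*Wt1 kidney. In the *let-7* experiment *Tcf21* was at 391.4, 321.3 and 373.4 CPM in KO kidneys and at 375.2, 484.4 and 263 CPM in WT kidneys. The widest spread was thus among the wild types, and the log2 fold change was -0.05 (SE 0.22, edgeR adjusted p = 0.9543), or between -0.26 and 0.18 with each kidney left out in turn.

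Of the slit diaphragm genes, *Nphs1* encodes nephrin, the adhesion protein that spans the slit. Its level was 9.417, 8.548 and 4.858 CPM in *LIN28B*Wt1 kidneys and 8.05, 4.255 and 4.555 CPM in the controls. One *LIN28B*Wt1 kidney lay among the controls, and the log2 fold change of 0.44 was close to its SE of 0.41 (edgeR adjusted p = 0.6377). It lay between 0.25, without the first *LIN28B*Wt1 kidney, and 0.79, without the first control. Among the *let-7* knockouts *Nphs1* ranged from 3.442 CPM in the first kidney to 10.3 and 11.94 CPM in the others, around *let-7* WT values of 8.996, 8.203 and 8.288 CPM. The wild types were close to each other, and the knockouts lay on both sides of them. The estimate was near 0 on the log2 scale (0.00058, SE 0.46), and its 95% interval still spanned folds from 0.491 to 2.04. With a covariate for the transcript-length bias of each kidney it became -0.63, and with each kidney left out it lay between -0.31 and 0.38.

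*Magi2* encodes a scaffold protein that binds nephrin from inside the cell, and it had the most negative log2 fold change of the 8 genes in both models. Its level was 6.561, 7.522 and 5.657 CPM in *LIN28B*Wt1 kidneys and 9.991, 13.18 and 6.985 CPM in the controls, a log2 fold change of -0.61 (SE 0.33, edgeR adjusted p = 0.3775) that became -0.37 without the second control. In the *let-7* experiment it was 5.021, 2.52 and 11.31 CPM in KO kidneys and 11.45, 6.001 and 16.15 CPM in WT kidneys. In both experiments every mutant was below every control of its own litter, and the groups overlapped only across litters. For the knockouts this came to a log2 fold change of -0.84 (SE 0.57, edgeR adjusted p = 0.6185). The 95% interval of the fold, from 0.234 to 1.33, was the widest of the 8 on the log2 scale, and leaving out each kidney gave log2 fold changes from -1.57 to -0.46.

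*Cd2ap* encodes an adaptor that ties the slit diaphragm to actin. Its level in *LIN28B*Wt1 kidneys, 95.15, 74.56 and 66.88 CPM, overlapped the controls at 98.67, 91.87 and 74.6 CPM (log2 fold change -0.16, SE 0.18, edgeR adjusted p = 0.7101), and leaving out each kidney gave -0.32 to -0.06. The knockouts had 80.69, 89.08 and 84.06 CPM against 89.62, 122.5 and 107.7 CPM in their wild types. All 3 KO kidneys were below all 3 WT kidneys, with the nearest pair less than 1 CPM apart. They differed by -0.34 on the log2 scale (SE 0.18, edgeR adjusted p = 0.53), and by -0.22 without the second wild type. In this model 2 of the 8 genes, *Cd2ap* and *Synpo*, were lower in every KO kidney, beside 8.98% of all genes, and 0 of 8 were higher in every KO kidney, beside 7.81% of all genes.

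*Podxl* encodes podocalyxin, the charged sialoprotein that keeps foot processes apart, and *Ptpro* a receptor tyrosine phosphatase of the podocyte surface. *Podxl* was at 141.6, 140.6 and 126.5 CPM in *LIN28B*Wt1 kidneys and at 180.1, 136.8 and 126.2 CPM in the controls, where the first control was the highest. The estimate was -0.11 on the log2 scale (SE 0.16, edgeR adjusted p = 0.7803), and 0.06 without the first control. For *let-7* KO, *Podxl* was 112.9, 128.1 and 191.6 CPM against 169.9, 175.7 and 224.5 CPM in *let-7* WT. The litter 2 kidney was the highest in both groups, each KO kidney was below the wild types of its own litter, and the log2 fold change was -0.41 (SE 0.22, edgeR adjusted p = 0.5437), or between -0.66 and -0.26 with each kidney left out. *Ptpro* lay within 20.81 to 21.69 CPM in *LIN28B*Wt1 kidneys, inside the control range of 16.06 to 24.22 CPM. Across the *let-7* kidneys it spanned 10.14 to 27.86 CPM in KO and 11.16 to 26.96 CPM in WT kidneys, and the second kidney was the lowest and the third the highest in each group. The log2 fold changes of *Ptpro* were 0.08 (SE 0.22) and -0.08 (SE 0.42), and leaving out each kidney gave -0.04 to 0.24 for the first and -0.48 to 0.23 for the second.

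*Synpo* encodes synaptopodin, an actin-binding protein of the foot process, and it was lower in every mutant kidney of each experiment than in every one of its own controls. Its level was 38.16, 38.04 and 36.52 CPM in *LIN28B*Wt1 kidneys and 52.65, 45.01 and 45.89 CPM in their controls. Replicates were closer to each other than the groups were, with 37.57 ± 0.9139 against 47.85 ± 4.18 CPM (mean ± SD, n = 3 each). The log2 fold change was -0.35 (SE 0.16, edgeR adjusted p = 0.284). The *let-7* experiment had *Synpo* at 49.13, 38.39 and 54.99 CPM in KO kidneys and at 64.82, 71.33 and 66.15 CPM in WT kidneys. The log2 fold change was -0.51 (SE 0.2, edgeR unadjusted p = 0.02846, adjusted p = 0.4041), with a 95% interval of the fold from 0.515 to 0.956. Within litters it was -0.65 in litter 1 and -0.27 in litter 2, and in *LIN28B*Wt1 kidneys -0.35 and -0.33. The 2 experiments share no kidneys, but neither difference passed the test after adjustment over all genes.

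**Figure D2:**
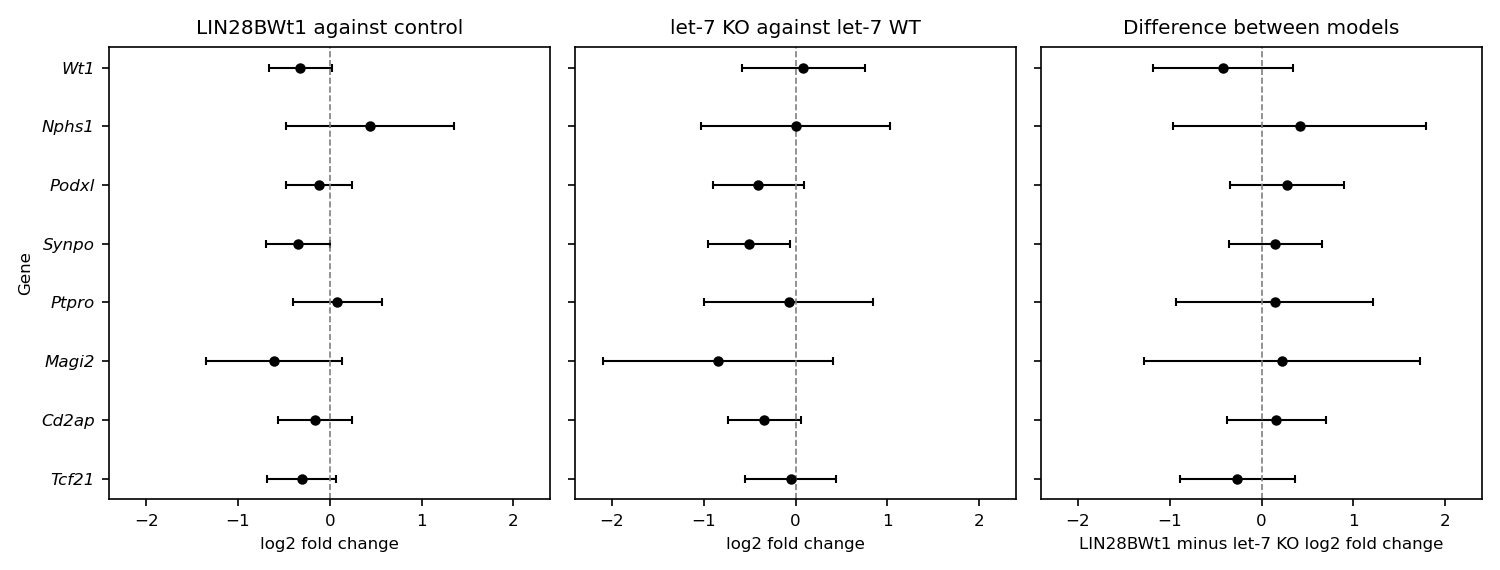
Log2 fold change of each of the 8 genes in *LIN28B*Wt1 against control kidneys, in *let-7* KO against *let-7* WT kidneys, and the difference between those 2 log2 fold changes, with points for the estimate and bars for the 95% interval (edgeR). Only the interval of *Synpo* in *let-7* KO (-0.96 to -0.07) leaves out 0, and that of *Magi2* in *let-7* KO is the widest within a model.

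No difference between the models passed the test for any of the 8 genes. The interaction was called for 0 of 8 genes, beside 0.00602% of the 16598 genes tested, and at an unadjusted p below 0.05 for 0 of 8, beside 6.27% of all genes. The estimates, *LIN28B*Wt1 minus *let-7* KO, ran from -0.42 for *Wt1* to 0.41 for *Nphs1* on the log2 scale. For *Synpo*, the most precise, the 95% interval of this difference was -0.36 to 0.66, and for *Magi2*, the least precise, -1.29 to 1.72.

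Between the 2 control groups the 8 genes were also compared, and here strain and experiment cannot be told apart. The test called 0 of 8 genes (0.627% of all genes), and 2 of 8 had an unadjusted p below 0.05, *Wt1* and *Synpo* (9.58% of all genes). They lay on opposite sides. In every one of the 3 *let-7* WT kidneys 1 of the 8 genes, *Wt1*, was lower than in every control of *LIN28B*Wt1 (10.4% of all genes), and 2, *Synpo* and *Nphs1*, were higher (9.15% of all genes). The *Wt1* log2 difference was -0.69 (SE 0.25, edgeR adjusted p = 0.3453). That of *Synpo* was 0.5 (SE 0.17, edgeR adjusted p = 0.2995). For *Nphs1* it was 0.6 (SE 0.46, edgeR adjusted p = 0.7901). The *Wt1* comparison depended on 1 kidney, since without the *let-7* WT kidney of litter 2, at 43.62 CPM, it was called at a log2 difference of -1.09 (edgeR adjusted p = 0.03624).

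To compare levels between genes, CPM was divided by the length of the longest annotated transcript. On this scale the order of the medians over 12 kidneys was *Tcf21* (204.2 CPM per kb), *Podxl* (26.23), *Cd2ap* (15.93), *Wt1* (12.3), *Synpo* (9.21), *Ptpro* (4.048), *Nphs1* (1.789) and *Magi2* (1.103). *Tcf21*, which the stroma also expresses, stood above the rest in every kidney, at no less than 138 CPM per kb where *Podxl* reached no more than 41.74. Among neighbours in that order, the ranges over kidneys overlapped for *Podxl* (from 21 up) and *Cd2ap* (11.92 to 21.84), for *Cd2ap* and *Wt1* (7.148 to 16.87), and for *Wt1* and *Synpo* (7.079 to 13.83). They also overlapped for *Ptpro* (1.989 to 5.468) and *Nphs1* (0.7469 to 2.591), and for *Nphs1* and *Magi2* (0.3831 to 2.456). *Synpo* and *Ptpro* did not overlap. *Nphs1*, nephrin, was therefore among the least abundant of the 8 messages per length. The spread between kidneys of a group, as a coefficient of variation, was lowest for *Synpo* (10.03%) and highest for *Magi2* (44.17%), *Nphs1* (36.66%) and *Ptpro* (31.79%).

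Pairs of the 8 genes more often varied together than apart from kidney to kidney. For this description, each gene's log2(CPM + 0.5) was taken as its deviation from the mean of its group, and deviations were correlated over the 12 kidneys, which share litters and library depth. Of 28 pairs, 22 had a positive Pearson r, and the median was 0.339. Over all pairs of the 14064 genes with a mean of at least 1 CPM, 50% were positive and the median was 0.000103. *Ptpro* and *Magi2* varied together most closely (r = 0.938, Spearman's rho = 0.846). In both groups of the *let-7* experiment their order was the third kidney, then the first, then the second. The transcript-length bias of each kidney, as a slope on log2 length, had this order in WT kidneys (0.19, 0.0691 and -0.057). It did not in KO kidneys (-0.139, 0.0482 and -0.111, listed in the same order). The part of this bias in the correlations was not tested. *Podxl* followed *Wt1* (r = 0.703), *Nphs1* (r = 0.711), *Ptpro* (r = 0.676) and *Magi2* (r = 0.658). *Wt1* and *Tcf21*, the transcription factors, ran opposite to each other (r = -0.662), less so by rank (Spearman's rho = -0.469). The *let-7* WT kidney of litter 2 was the highest of its group for *Wt1* (43.62 CPM) and the lowest for *Tcf21* (263 CPM). Its part in this r was not tested. No p is attached to these values.

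**Figure D3:**
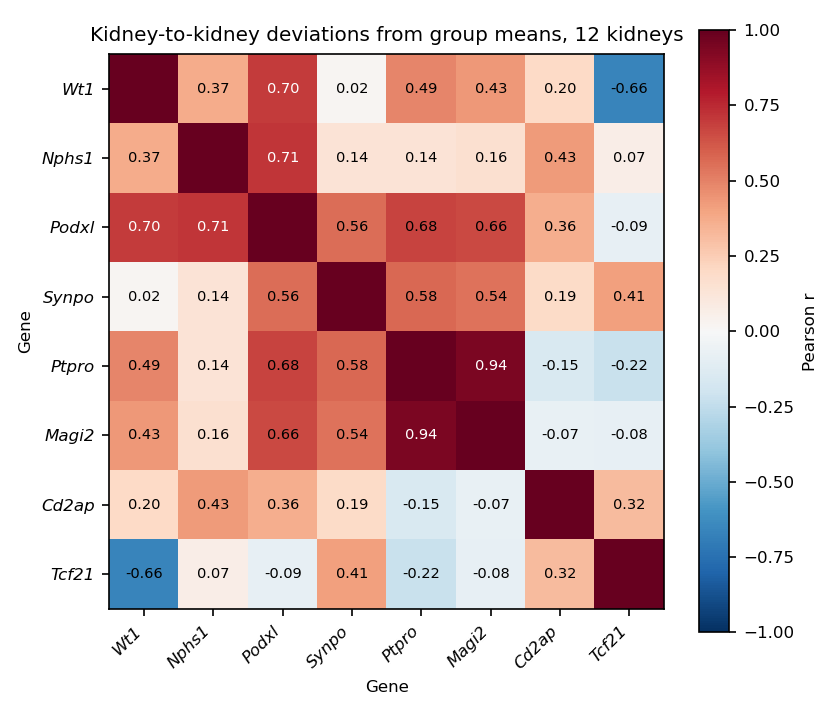
Pearson r of the deviations from group means of log2(CPM + 0.5) for every pair of the 8 genes over 12 kidneys, red for positive and blue for negative, with r written in each cell. *Ptpro* and *Magi2* have the highest r and *Wt1* and *Tcf21* the lowest.

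None of the other 7 genes was among those most like *Wt1*. Among 14063 genes with a mean of at least 1 CPM, the 5 whose deviations followed *Wt1* most closely were *S100a14* (r = 0.975), *Atad2b* (r = 0.949), *Otud4* (r = 0.949), *Rspo1* (r = 0.937), a secreted activator of Wnt signalling, and *Rnf43* (r = 0.936), a membrane ubiquitin ligase that restrains Wnt receptors. *Podxl* ranked highest of the 7, at 176, and *Tcf21* lowest, at 13741. For *Wt1* the *let-7* WT kidney of litter 2 stood far from its group, at 43.62 CPM against 22.09 and 22.99 CPM. The part of this kidney in the *Wt1* ranking was not tested. The 5 genes most like *Nphs1* were *Hbegf* (r = 0.934), *Wasl* (r = 0.924), *AA415398* (r = 0.923), *Rsrc2* (r = 0.911) and *Iqsec1* (r = 0.909), and *Podxl* again ranked highest of the 7, at 453.

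Of the wider podocyte gene lists, 1 gene passed the adjusted edgeR test, *Col4a3* of the glomerular basement membrane in *LIN28B*Wt1 kidneys. The lists were written with earlier results of these data known. Among 11 other slit diaphragm genes tested in *LIN28B*Wt1 kidneys, 0 passed the adjusted test, 1 had an unadjusted p below 0.05 (18% of all genes) and DESeq2 called 1 (8.17% of all genes), and the median log2 fold change was -0.004. Of 12 tested for *let-7* KO, 0 passed, 3 had an unadjusted p below 0.05 (10.8% of all genes) and DESeq2 called 1 of the 8 to which it gave an adjusted p (3.89% of all genes), with a median of -0.23. *Fat1*, a giant protocadherin of the slit, was at -0.05 (edgeR adjusted p = 0.9391) in the first model and at -0.76 in the second (edgeR adjusted p = 0.3623).

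Of 13 podocyte cytoskeleton genes, 0 passed the adjusted edgeR test in either model, and the medians were -0.14 and -0.11. In *LIN28B*Wt1 an unadjusted p below 0.05 was found for 5 of the 13 beside 18% of all genes, and DESeq2 called 2 beside 8.17%. Among the knockouts 3 of the 13 had such a p beside 10.8% of all genes, and DESeq2 called 1 of 6 beside 3.89%. *Arhgap24*, a GTPase-activating protein, was lower in all mutants of both models, at -0.54 (edgeR adjusted p = 0.08328) and -0.39 (edgeR adjusted p = 0.4226). *Nes*, which encodes the intermediate filament nestin, was higher in all mutants of both models, at 0.75 (edgeR adjusted p = 0.1195) and 0.88 (edgeR adjusted p = 0.3623). *Clic5*, which links ezrin to the membrane, was at -0.77 (edgeR adjusted p = 0.1537) in *LIN28B*Wt1 kidneys. Of 7 podocyte transcription factors 0 passed in either model by edgeR or DESeq2 and 1 and 0 had an unadjusted p below 0.05 (18% and 10.8% of all genes), with medians of 0.01 and -0.26.

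Podocytes lay down much of the glomerular basement membrane, and all 11 genes of this list were below 0 in *LIN28B*Wt1 kidneys, as 51.5% of all genes were, with a median of -0.48. In the same comparison all 9 endothelial and all 7 proximal tubule genes were also below 0, while 11 of 12 cap mesenchyme genes were above it. Which cells gave the RNA of the basement membrane list was not tested. By edgeR 1 of the 11, *Col4a3*, passed the adjusted test (1.23% of all genes) and 8 had an unadjusted p below 0.05 (18%), and DESeq2 called 3 (8.17%). *Col4a3* encodes a chain of the collagen IV network of the mature glomerular basement membrane, and it was at 29.08, 22.49 and 25.29 CPM in *LIN28B*Wt1 kidneys and at 57.23, 64.54 and 49.45 CPM in the controls. The fall was -1.15 on the log2 scale (SE 0.18, edgeR adjusted p = 0.02118). Leaving out any 1 of the 3 controls or the first or second *LIN28B*Wt1 kidney moved its adjusted p to between 0.05477 and 0.1743, with the log2 fold change between -1.25 and -1.05. In *let-7* KO kidneys *Col4a3* was at 46.41, 28.03 and 27.4 CPM against 59.63, 95.86 and 48.07 CPM, again without overlap. That log2 fold change of -1 did not pass the adjusted test (edgeR adjusted p = 0.3623) and was -0.66 without the second wild type. There 10 of the 11 genes were below 0, beside 51.99% of all genes, and the median was -0.41. By edgeR 0 were called and 4 had an unadjusted p below 0.05 (10.8% of all genes), and DESeq2 called 1 of 10 (3.89%). *Nid1*, a linker of laminin and collagen IV, was at -0.62 (edgeR adjusted p = 0.1076) and -0.58 (edgeR adjusted p = 0.4173), and *Lamc1*, a laminin chain, at -0.48 (edgeR adjusted p = 0.2539) and -0.78 (edgeR adjusted p = 0.3623).

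Among 12 further genes listed for podocytes, 0 passed the adjusted edgeR test in either model, and the list's medians were -0.59 and -0.33. Which cells of the whole kidney gave their RNA was not tested. In the first model 6 of the 12 had an unadjusted p below 0.05, beside 18% of all genes, and DESeq2 called 4, beside 8.17%. In the second 4 of the 12 had one, beside 10.8%, and DESeq2 called 1 of 5, beside 3.89%. *Npnt*, which encodes the matrix protein nephronectin, was at 397.7, 338.5 and 462.3 CPM in *LIN28B*Wt1 kidneys and at 690.9, 674.1 and 561.3 CPM in the controls (log2 fold change -0.68, edgeR adjusted p = 0.06295). *Enpep*, the aminopeptidase A gene, was at -0.82 (edgeR adjusted p = 0.0741) and -0.69 (edgeR adjusted p = 0.3903). *Cdkn1c*, which encodes the cell cycle inhibitor p57, lay on the other side of 0, at 0.73 (edgeR adjusted p = 0.1243) and 0.79 (edgeR adjusted p = 0.3623). It was at 2269, 2784 and 2501 CPM in *let-7* KO kidneys and at 1597, 1758 and 994.3 CPM in *let-7* WT, the most abundant gene of the list. The summed level of the 12 genes was therefore higher in every KO kidney (3578 to 3696 against 2496 to 3209 CPM) although the median gene was lower.

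Summed levels of the podocyte lists went different ways in *LIN28B*Wt1 kidneys. The 8 genes summed to 547.1 to 685 CPM against 627.9 to 816.4 CPM in the controls, with overlap. The basement membrane genes (1201 to 1573 against 1705 to 1940 CPM) and the cytoskeleton genes (2033 to 2124 against 2344 to 2384 CPM) were lower in every mutant, and the transcription factors higher (488.6 to 525.6 against 418.7 to 467.1 CPM). The cytoskeleton sum is mostly *Actn4*, *Arhgdia* and *Ezr*. *Actn4* (438.7 to 513.2 against 554.6 to 623.7 CPM) and *Ezr* (345.3 to 460.9 against 471.5 to 538.3 CPM) were lower in every mutant, and *Arhgdia* overlapped. Of the 13 cytoskeleton genes 8 were below 0 and 5 above. Sums overlapped for the other slit diaphragm genes (522.9 to 687.1 against 561.5 to 684.8 CPM) and the further podocyte genes (2132 to 3116 against 2239 to 2408 CPM). Between *let-7* KO and WT kidneys the sum of the 8 genes overlapped (632.9 to 791.1 against 756.4 to 902.3 CPM), as did those of every podocyte list but the further podocyte genes.

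**Figure D4:**
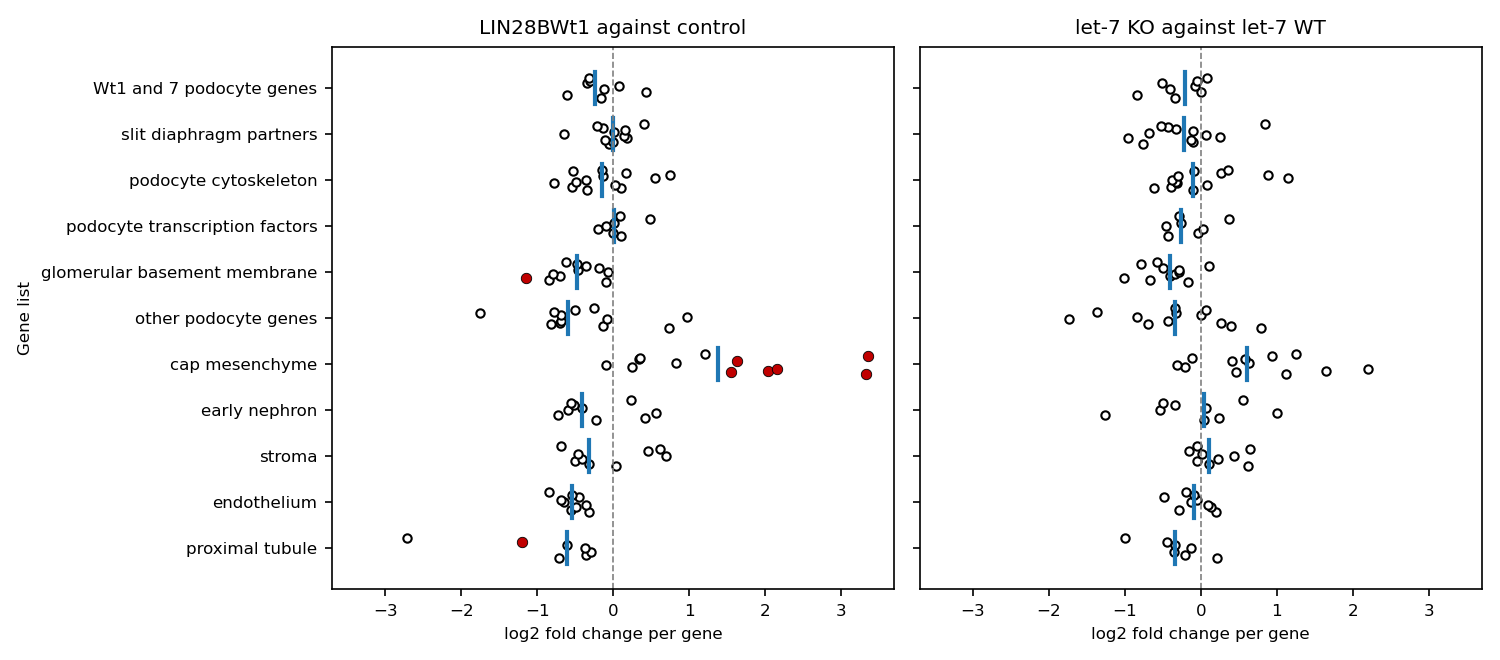
Log2 fold change of each gene in the podocyte lists and in lists of other kidney cell types, in *LIN28B*Wt1 against control kidneys and in *let-7* KO against *let-7* WT kidneys, with 1 point per gene, red where the edgeR adjusted p is below 0.05, and a blue line for the list's median. The cap mesenchyme median is 1.38 in *LIN28B*Wt1, and the medians of the podocyte lists lie between -0.59 and 0.01.

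Markers of other kidney cells differed between the *LIN28B*Wt1 groups too, and CPM values are shares of 1 total. The summed level of 12 cap mesenchyme genes, cells that also express *Wt1*, was 628.2 to 789.5 CPM in *LIN28B*Wt1 kidneys and 339.9 to 375.9 CPM in the controls. Of these 12 genes 6 rose, beside 1.23% of all genes called in either direction (*Six2*, *Cited1*, *Eya1*, *Osr1*, *Gdnf* and *Crym*), and 2 to 8 did when each kidney was left out in turn. *Six2*, the nephron progenitor transcription factor, was at 111.1, 108.1 and 167.7 CPM against 12.81, 10.24 and 14.97 CPM. *Wt1* was thus lower in the same kidneys in which these cap mesenchyme genes were higher. Summed levels of several other lists were lower in every *LIN28B*Wt1 kidney than in every control. The 7 proximal tubule genes summed to 1013 to 1233 against 2067 to 2197 CPM, and the 7 distal nephron and duct genes to 1529 to 2089 against 2521 to 2932 CPM. The genes of the latter list did not move together. *Umod*, *Slc12a1*, *Slc12a3* and *Calb1* were lower in every mutant. *Aqp2* overlapped (log2 fold change -0.12), and *Ret* (1.47) and *Wnt11* (0.16) were above 0, also with overlap. The 9 endothelial genes, cells that also express *Podxl*, summed to 713 to 770.8 against 1048 to 1090 CPM. For the 9 early nephron genes the sums were 667 to 748.1 against 763.8 to 902.8 CPM, for the 7 mesangial genes 661.9 to 744.7 against 809.8 to 872.1 CPM, and for the 4 mesothelial genes 8.602 to 36.85 against 49.18 to 94.04 CPM. The mesangial sum is mostly *Acta2*, smooth muscle actin (394.9 to 500.3 against 507.1 to 582.1 CPM). *Ren1*, renin, is listed at 0 in 11 of 12 kidneys, and whether that reflects expression or the counting was not tested. Of this list *Des*, the desmin gene, passed the test, and it rose, from 17.74, 25.05 and 24.57 CPM in the controls to 67.96, 63.22 and 62.49 CPM (log2 fold change 1.53, edgeR adjusted p = 0.007262). Sums overlapped for the 9 stromal genes, cells that also express *Tcf21* (2877 to 3788 against 3683 to 4188 CPM), the 5 blood genes (47.92 to 86.86 against 58.17 to 80.23 CPM) and the 6 adrenal genes (5.076 to 5.69 against 3.036 to 5.215 CPM).

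In the *let-7* experiment the sum of the proximal tubule genes was lower in every KO kidney (2307 to 2683 against 2884 to 3418 CPM), and the sums of the other cell types overlapped. They were 293.2 to 315.4 against 267.2 to 319.5 CPM for the cap mesenchyme, 788.7 to 1034 against 974.4 to 1059 CPM for endothelium, 3033 to 4228 against 2892 to 4231 CPM for stroma and 802.3 to 907.7 against 735.5 to 1028 CPM for the early nephron. The remaining ranges were 843.8 to 1191 against 769.4 to 1087 CPM for mesangium, 2572 to 3677 against 2317 to 3810 CPM for distal nephron and duct, 37.3 to 48.14 against 25.54 to 46.32 CPM for mesothelium, 80.59 to 107.6 against 74.7 to 101.7 CPM for blood and 2.778 to 4.223 against 2.114 to 3.65 CPM for adrenal genes. Within the cap mesenchyme list 9 of 12 genes were above 0 in *let-7* KO, with a median log2 fold change of 0.6, and 0 passed the adjusted edgeR test, 2 had an unadjusted p below 0.05 (10.8% of all genes) and DESeq2 called 0 of 3. *Gdnf*, the growth factor that draws in the ureteric bud, was at 3.325, 5.776 and 8.334 CPM in KO kidneys and at 1.182, 1.046 and 1.539 CPM in WT kidneys (log2 fold change 2.2, edgeR adjusted p = 0.3623). *Cited1*, a marker of the least committed progenitors, was also higher in all 3 (1.13, edgeR adjusted p = 0.3792). The groups overlapped for *Six2* (0.94, edgeR adjusted p = 0.5414) and *Eya1* (1.65, edgeR adjusted p = 0.5077). The part that any of these shifts in other cell types has in the values of the 8 genes was not tested.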

How the data were processed

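Processing is described here for the reads of 12 whole kidneys at postnatal day 3. The deposited values are raw counts of reads per gene symbol, 1 file per kidney, which the authors made from SMARTer Ultra Low RNA libraries sequenced on a HiSeq machine. The submitters' processing notes name cutadapt, TopHat2 2.0.9, Bowtie2, SAMtools 0.1.19, HTSeq and mm10, and the annotation, strand setting and treatment of shared reads are not given in the sources used here. Groups and litter numbers came from the sample labels. Nothing in them says more about how the 3 kidneys of a group are related, so p-values measure the spread between these kidneys.

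The 8 genes, the gene lists and the tests were chosen with earlier results of these data known. The 2 models were fitted separately with edgeR 4.0.16 under R 4.3.3, using TMM scaling, filterByExpr at its default minimum of 10 counts and default total of 15, the quasi-likelihood test and Benjamini-Hochberg adjustment over all genes tested, and a gene was called at an adjusted p below 0.05. The difference between the models and that between the control groups came from 1 fit of all 12 kidneys. Standard errors were obtained by dividing each log2 fold change by the root of its F value, and the 95% intervals use the test's degrees of freedom. Exact permutation tests were two-sided. Intervals and the level of 3 counts cover counting and kidney-to-kidney error only. The scripts were tested on simulated data. From the other lists, the genes named are the 3 with the smallest unadjusted p in a model, or the genes that passed, and markers of cell types. Some of the genes this names are not reported here. *Robo2* and *Col4a3* were followed through the alternatives after their values were seen. Alternatives were DESeq2 1.42.0, RLE and upper-quartile scaling, the litter number as a replicate block, no filter, a strict filter that required 1 CPM or more in all kidneys of a fit, 1 fit of all kidneys, a transcript-length covariate, unadjusted p below 0.01 and each kidney left out. The labels number the litters and the study calls the controls littermates, so litter numbers pair kidneys. Deviations from group means had a mean correlation of -0.114 within litters and 0.141 between them for *LIN28B*Wt1, and of -0.0249 and 0.0308 for *let-7*. No 2 kidneys of a group looked like a single library deposited again, since the chi-square per gene was at least 30.8. Gene models and 3′ UTRs were those of GENCODE M21 (GRCm38), and 95.65% of the genes with a mean of at least 1 CPM had a transcript length.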

Additional observations from a re-analysis of the deposited data

Results flagged for a closer look

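*Robo2*, which encodes a receptor for Slit guidance proteins that is active in nephron progenitors and podocytes, lay on opposite sides of its controls in the 2 models, and is given here because of that pattern. It was at 41.21, 38.84 and 58.76 CPM in *LIN28B*Wt1 kidneys and at 27.95, 26.34 and 16.82 CPM in their controls, so that all 3 mutants lay above all 3 controls. In the *let-7* experiment it was at 21.4, 9.841 and 17.99 CPM in KO kidneys and at 23.37, 32.15 and 31.97 CPM in WT kidneys, so that all 3 knockouts lay below all 3 wild types. The difference between the 2 log2 fold changes, *LIN28B*Wt1 minus *let-7* KO, was 1.79 (SE 0.42, 95% interval 0.89 to 2.68). It had an unadjusted p of 0.0007433 and an adjusted p of 0.3511 in edgeR's interaction test over all genes, and did not pass, and this p is for a gene picked by the same values. Neither model's own difference passed, at 0.97 (edgeR adjusted p = 0.09116) and -0.83 (edgeR adjusted p = 0.3931). DESeq2 and the transcript-length covariate called the difference in *LIN28B*Wt1 kidneys (adjusted p = 0.005826 and 0.006153). The other edgeR fits did not call it at an adjusted p below 0.05. The adjusted p was 0.1547 with the litter block, 0.136 in 1 fit of all kidneys and 0.05764 to 0.08738 with other scalings or filters. With each kidney left out in turn it was 0.06858 to 0.2978. Groups of 3 are too small for a test of single outlying kidneys.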

How the results depend on the processing

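Over the alternatives run, 0 of the 8 genes was called in either model or in the difference between the models, litter as a replicate block included. Between the control groups the count was 0, and 0 to 1 when each kidney was left out, the 1 being *Wt1* without the litter 2 *let-7* WT kidney. No direction turned for *Wt1* or *Synpo* in *LIN28B*Wt1 kidneys, nor for *Synpo*, *Magi2*, *Podxl* and *Cd2ap* in *let-7* KO kidneys. Directions that turned were those of small estimates. The *Nphs1* log2 fold change in *let-7* KO kidneys was -0.003346 with no filter, -0.0007249 with the strict filter, -0.05109 with the litter block and -0.6331 with the transcript-length covariate, which also put *Ptpro* at 0.3428. Leaving out each kidney gave -0.1986 to 0.05542 for *Podxl* and -0.03918 to 0.242 for *Ptpro* in *LIN28B*Wt1 kidneys. For *let-7* KO it gave -0.08992 to 0.4739 for *Wt1*, -0.3072 to 0.3752 for *Nphs1*, -0.4836 to 0.228 for *Ptpro* and -0.2558 to 0.184 for *Tcf21*. The cause was not tested. Counts over all genes moved more than those of the 8 genes. In *LIN28B*Wt1 kidneys 194 genes were called, 95 with the litter block, 401 with the strict filter, 1091 with the length covariate and 21 to 2074 with each kidney left out, the highest without the third *LIN28B*Wt1 kidney. In *let-7* KO kidneys 3 were called, 0 with the litter block, 1 with the length covariate, 5 with the strict filter or 1 fit of all kidneys and 0 to 5 with each kidney left out. Between the control groups it was 104, and 31 to 137. The block fit does not apply to the control groups, which share no litter. Each of the 8 genes had at least 137 counts per kidney. The 3 with the lowest levels, *Magi2*, *Nphs1* and *Ptpro*, had the widest spread between kidneys, and the part of depth in it was not tested.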
